A study of Mus musculus with 7 samples.

Results

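The genes described here are 9 that encode the enzymes of DNA methylation and demethylation and their direct cofactors, Dnmt1, Dnmt3a, Dnmt3b, Dnmt3l, Uhrf1, Tet1, Tet2, Tet3 and Tdg. They were taken by gene symbol from an expression table of 22180 mouse genes, with 1 probe set (a group of array probes) standing for each gene. Of the 9 genes 8 had a probe set of their own. Tdg was named only together with pseudogenes of its own family, on 2 probe sets, and was not analysed here. The 8 others had 1 probe set each, so transcript isoforms of a gene were not told apart.

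Levels were measured on 7 single-colour Affymetrix arrays of cells of strain 129. They held 2 arrays of Nanog knockout (KO) induced pluripotent stem cells (iPSC), 2 of wild-type (WT) iPSC, 1 of WT embryonic stem cells (ESC), 1 of Nanog KO mouse embryonic fibroblasts (MEF) and 1 of WT MEF. iPSC are somatic cells returned to an ESC-like state, MEF are fibroblasts grown from embryos, and Nanog encodes a homeobox protein that takes part in keeping ESC pluripotent; the series set KO iPSC against WT pluripotent cells. The labels call the iPSC arrays biological replicates without saying whether they came from separate lines, and p-values measure only the spread between these arrays. Cells were grown in ESC medium, in medium with the 2i inhibitors and the cytokine LIF, or in MEF medium, and the medium of each array was not given. A difference in medium between genotypes therefore cannot be told apart from the loss of Nanog.

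DNA methylation in mammals is written mostly on cytosines that precede a guanine (CG). Dnmt3a and Dnmt3b place new methyl groups, Dnmt3l is a catalytically inactive partner that stimulates both, and Dnmt1, guided by Uhrf1, copies the marks onto the new strand after replication. The dioxygenases Tet1, Tet2 and Tet3 oxidise methylcytosine, and the glycosylase Tdg cuts out the oxidised forms for replacement by base excision repair. Mouse ESC are known for high Tet1 and Tet2 and for the presence of Dnmt3b and Dnmt3l, and Nanog protein is known to bind Tet1 and Tet2.

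The start regions of the 4 genes that differed most between WT iPSC and WT MEF are printed here because they differ widely in their content of CG, the substrate of these enzymes. Each is the RefSeq window of 300 bases (250 before and 50 after the annotated start, assembly GRCm38.p6), 5′ to 3′ on the strand of the gene, with every CG in capitals. The Tet1 window lies at chr10:62887275-62887574 on the minus strand, the Tet2 window at chr3:133544341-133544640 on the minus strand, the Dnmt3b window at chr2:153649199-153649498 on the plus strand, and the first of the 3 Dnmt3l windows at chr10:78042037-78042336 on the plus strand.
Tet1: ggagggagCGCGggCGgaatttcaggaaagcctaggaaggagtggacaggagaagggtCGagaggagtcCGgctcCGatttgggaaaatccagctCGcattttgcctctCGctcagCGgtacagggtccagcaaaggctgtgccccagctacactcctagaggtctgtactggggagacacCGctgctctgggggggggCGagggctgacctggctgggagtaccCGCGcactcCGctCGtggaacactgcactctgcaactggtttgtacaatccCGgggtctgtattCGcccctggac
Tet2: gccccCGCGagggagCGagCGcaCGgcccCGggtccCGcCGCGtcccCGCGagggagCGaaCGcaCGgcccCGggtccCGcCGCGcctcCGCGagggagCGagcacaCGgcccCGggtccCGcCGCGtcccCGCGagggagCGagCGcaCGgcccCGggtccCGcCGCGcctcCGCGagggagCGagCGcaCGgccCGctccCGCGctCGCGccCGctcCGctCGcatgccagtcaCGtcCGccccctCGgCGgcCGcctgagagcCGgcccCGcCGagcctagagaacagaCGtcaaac
Dnmt3b: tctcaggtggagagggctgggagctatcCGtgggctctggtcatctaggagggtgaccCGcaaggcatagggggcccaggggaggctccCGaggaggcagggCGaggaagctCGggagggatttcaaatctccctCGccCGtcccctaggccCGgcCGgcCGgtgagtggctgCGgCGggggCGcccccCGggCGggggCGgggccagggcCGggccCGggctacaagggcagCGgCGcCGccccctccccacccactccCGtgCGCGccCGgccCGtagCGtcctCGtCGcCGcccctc
Dnmt3l: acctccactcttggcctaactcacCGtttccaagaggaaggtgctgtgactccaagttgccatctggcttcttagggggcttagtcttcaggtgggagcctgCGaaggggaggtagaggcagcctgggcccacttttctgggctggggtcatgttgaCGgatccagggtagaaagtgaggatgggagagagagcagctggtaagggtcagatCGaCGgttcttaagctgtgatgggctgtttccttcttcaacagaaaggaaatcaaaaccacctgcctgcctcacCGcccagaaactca
The Tet2 window holds 57 CG, more than 99.8% of 32841 windows of this length, whose median is 7. The Dnmt3b window holds 30 and the Tet1 window 17. The Dnmt3l window holds 6, and the other annotated Dnmt3l starts hold 4 and 3. The observed over expected CG ratio was 1.17 for Tet2, 0.694 for Dnmt3b, 0.607 for Tet1 and 0.272 for Dnmt3l. These counts describe the reference sequence, and methylation itself was not measured.

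The arrays were comparable in brightness, with a median log2 intensity between 7.05 and 7.13. Receptor genes of the nose, 1394 olfactory and vomeronasal ones, served to mark background, and their 95th percentile lay between 6.30 and 6.50. Nanog stood at 7.50 and 7.44 in KO iPSC, against 12.84 and 12.76 in WT iPSC and 12.73 in WT ESC. KO MEF stood at 6.42 and WT MEF at 6.53, so the pluripotent arrays follow their labels at Nanog while the MEF arrays, both low, give no such check. The 2 KO iPSC arrays differed from each other less (SD over genes 0.154) than the 2 WT iPSC arrays (SD 0.323). Of 10 pluripotency markers, 9 were higher in iPSC than in MEF within each genotype by the test described next, while Dppa5a was not called. Fibroblast markers were uneven among the WT pluripotent arrays. The summed intensity of 13 of them was 1499 and 1518 in KO iPSC, 9417 and 2026 in WT iPSC replicates 1 and 2, 4393 in WT ESC, 57259 in KO MEF and 37966 in WT MEF. The collagen gene Col1a1 stood at 7.22 and 7.23 in KO iPSC, 10.77 and 8.64 in WT iPSC, 9.58 in WT ESC, 12.94 in KO MEF and 12.62 in WT MEF. Of the 13 markers, the arrays in that order had 7 and 7, 11 and 8, 10, 13 and 12 above background. The 6 primitive endoderm markers summed to 937 and 932 in KO iPSC, 1070 and 883 in WT iPSC and 1035 in WT ESC. These sums hide opposite changes against the WT pluripotent arrays, where 6.89% of all genes were called higher and 8.81% lower. Gata6 was called higher in KO iPSC (1.15, SE 0.14), Dab2 lower (-1.02, SE 0.16), and 4 were not called. The 6 trophoblast markers summed to 1186.5 and 1159 in KO iPSC, 946 and 1790 in WT iPSC and 1171 in WT ESC.

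**Figure D1:**
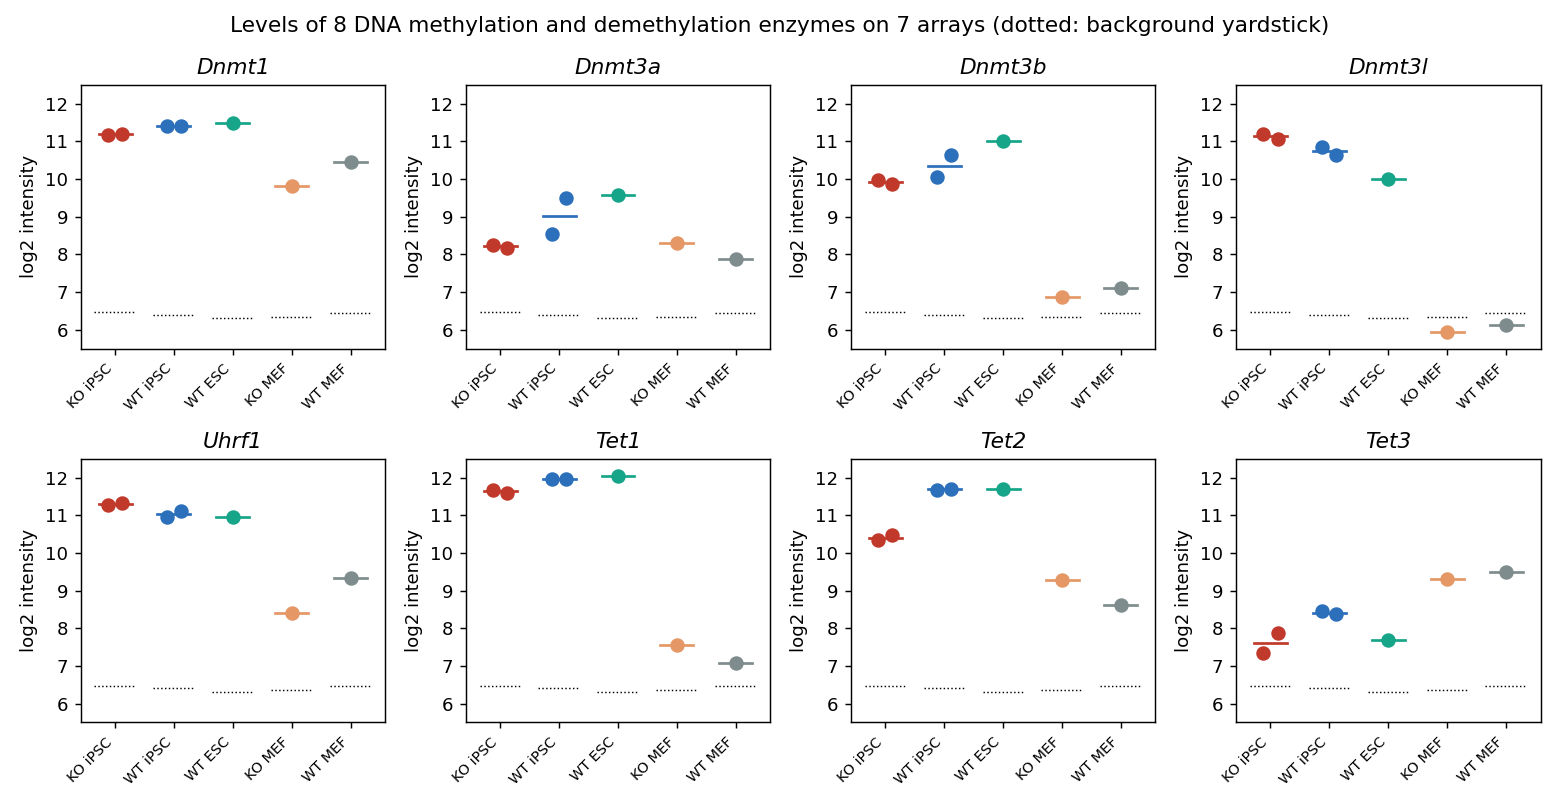
Log2 intensity (vertical axis) of the 8 enzyme genes in the 5 groups; each point is 1 array, the bar is the group mean and the dotted line the background yardstick. Tet2 lies at 10.35 and 10.46 in KO iPSC, below all 3 WT pluripotent arrays, which lie between 11.67 and 11.69, and Tet3 is the gene that lies higher in MEF than in pluripotent cells.

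Tet2 had the largest difference of the 8 genes between KO iPSC and the WT pluripotent arrays. Its log2 intensity was 10.35 and 10.46 in KO iPSC, against 11.67 and 11.69 in WT iPSC and 11.69 in WT ESC. The 3 WT arrays lay within 0.02 of each other, and both KO arrays lay far below them. Tet2 fell 2.43-fold in KO iPSC relative to the 3 WT pluripotent arrays (log2 -1.28, SE 0.08, 95% interval -1.48 to -1.08, limma adjusted p = 0.00102, 2 arrays against 3). Against WT iPSC alone it fell 2.42-fold (log2 -1.28, SE 0.09, limma adjusted p = 0.00231). Tet2 passed the threshold of 0.05 in each of the 15 alternative settings of both comparisons, with adjusted p between 0.000282 and 0.040. Some of these settings add little, since leaving out a MEF array repeats the reported fit and averaging probe sets leaves the Tet2 values unchanged. The pluripotency markers were also lower in sum, at 23613 and 23794 in KO iPSC, against 29274 and 31164 in WT iPSC and 31681 in WT ESC. Of the 10, Utf1 (-1.18, SE 0.11) and Tdgf1 (-0.48, SE 0.09) fell and 0 rose against the WT pluripotent arrays, and Esrrb (-1.43, SE 0.21) fell as well against WT iPSC. A sum of intensities follows the brightest genes most. Against the WT pluripotent arrays the median difference of the 10 markers was only -0.08, with 6 below 0 and 8 not called. Their part in the Tet2 difference was not tested.

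Tet1 fell slightly. It stood at 11.68 and 11.58 in KO iPSC, against 11.95 and 11.95 in WT iPSC and 12.03 in WT ESC. Both KO arrays lay below all 3 WT arrays, as they did for 23.2% of all genes. The difference from the WT pluripotent arrays was 1.27-fold (log2 -0.35, SE 0.08, limma adjusted p = 0.0396). Against WT iPSC alone it was nearly as large and missed the threshold (log2 -0.32, SE 0.09, limma adjusted p = 0.0684). Tet1 passed in 8 of 15 alternative settings against the WT pluripotent arrays and in 2 of 15 against WT iPSC. The 8 include leaving out either MEF array, which repeats the reported fit. They also include averaging probe sets, which leaves the Tet1 values unchanged. With each array centred on its median the adjusted p against the WT pluripotent arrays was 0.0659, and it was 0.224 with both KO arrays averaged into 1 sample.

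Tet3 was lower in KO iPSC than in WT iPSC, but WT ESC was low as well. Its log2 intensity was 7.35 and 7.88 in KO iPSC, 8.44 and 8.37 in WT iPSC and 7.68 in WT ESC. The WT ESC value lay between the 2 KO iPSC values. Against WT iPSC alone Tet3 fell 1.73-fold (log2 -0.79, SE 0.19, limma adjusted p = 0.048), and against all WT pluripotent arrays it did not pass (log2 -0.55, SE 0.28, limma adjusted p = 0.239). The call against WT iPSC was lost with median centring (adjusted p = 0.0529), with quantile normalization (adjusted p = 0.0757), after adding 16 before the log (adjusted p = 0.0558), with the KO arrays averaged (adjusted p = 0.0792) and without KO iPSC replicate 1, where the difference was -0.53 (adjusted p = 0.161).

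The de novo methyltransferases stood lower in KO iPSC on average, but the WT arrays disagreed among themselves. Dnmt3a stood at 8.25 and 8.17 in KO iPSC, against 8.56 and 9.51 in WT iPSC and 9.57 in WT ESC. WT iPSC replicate 1 lay 0.95 below replicate 2 and close to the KO arrays. The difference from the WT pluripotent arrays, log2 -0.997 (SE 0.31, 95% interval -1.78 to -0.22), did not pass (limma adjusted p = 0.0914). Without WT iPSC replicate 1 it was log2 -1.32 and passed (limma adjusted p = 0.00223).

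Dnmt3b had the same order of arrays. It stood at 9.96 and 9.87 in KO iPSC, against 10.05 and 10.63 in WT iPSC and 11.02 in WT ESC, so WT iPSC replicate 1 again lay nearest to the KO arrays. The difference from the WT pluripotent arrays was log2 -0.65 (SE 0.27, limma adjusted p = 0.17), and without WT iPSC replicate 1 it was -0.91 (limma adjusted p = 0.0181). WT iPSC replicate 1 was also the pluripotent array with the most fibroblast signal, at 9417 summed marker intensity. WT ESC, highest in Dnmt3a and Dnmt3b, came next at 4393, and WT iPSC replicate 2 had 2026. The KO iPSC arrays, lowest in both genes among the pluripotent arrays, had the least, 1499 and 1518. Dnmt3a and Dnmt3b were both lower in WT MEF (7.88 and 7.11) than in any WT pluripotent array, and the part of fibroblast RNA in these values was not tested. The 5 primed epiblast markers measured summed to 652 and 638 in KO iPSC, 970 and 1272 in WT iPSC and 1316.5 in WT ESC. Against the WT pluripotent arrays only Otx2 was called (at least 4.12-fold lower, fitted log2 -2.35, SE 0.12). The 4 others were not called, and Foxa2 (0.23) lay above 0. The part of these markers was not tested either. In bulk RNA, fewer cells of a type and less RNA per cell cannot be told apart.

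Dnmt3l ran the other way. Its log2 intensity was 11.21 and 11.06 in KO iPSC, against 10.85 and 10.65 in WT iPSC and 10.01 in WT ESC. Both KO arrays lay above every WT array, as they did for 28.4% of all genes, and WT ESC lay lowest. The difference from the WT pluripotent arrays was 0.63 (SE 0.25, 95% interval 0.01 to 1.25, limma adjusted p = 0.153) and that from WT iPSC 0.38 (SE 0.11, limma adjusted p = 0.0865), so neither passed. Without WT iPSC replicate 1 the difference from WT iPSC was 0.48, with 1 WT iPSC array left.

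The maintenance pair differed little between genotypes. Dnmt1 stood at 11.16 and 11.21 in KO iPSC, against 11.41 and 11.41 in WT iPSC and 11.49 in WT ESC. Uhrf1 stood at 11.28 and 11.31 in KO iPSC, against 10.95 and 11.10 in WT iPSC and 10.96 in WT ESC. Neither gene's arrays overlapped between genotypes, with Dnmt1 lower and Uhrf1 higher in KO iPSC. That is common, since 23.2% of all genes lay wholly lower and 28.4% wholly higher in this way. The differences from the WT pluripotent arrays were -0.25 (SE 0.08, limma adjusted p = 0.0859) for Dnmt1 and 0.29 (SE 0.09, limma adjusted p = 0.0802) for Uhrf1. With trend and robust fitting both passed (adjusted p = 0.044 for Dnmt1 and adjusted p = 0.0494 for Uhrf1), and with quantile normalization Uhrf1 did (adjusted p = 0.0487).

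Counted together, 2 of the 8 genes fell and 0 rose in KO iPSC against the WT pluripotent arrays, where 8.81% of all genes were lower and 6.89% higher. After median centring 1910 genes were higher and 1620 lower, against 1529 and 1954 as deposited. Against WT iPSC alone 2 of 8 fell and 0 rose, with 9.55% of all genes lower and 6.93% higher. In these comparisons 6992 and 6940 genes had an unadjusted p under 0.05. The median difference of the 8 genes was -0.45 against the WT pluripotent arrays and -0.37 against WT iPSC, while that of all genes was 0.03 in both. Both KO iPSC arrays lay below all 3 WT arrays for 5 of the 8 genes and above them for 2, where 23.2% and 28.4% of all genes did so. The comparisons share the KO and WT iPSC arrays. Against WT iPSC, leaving out WT iPSC replicate 1 leaves 1 WT iPSC array, and the spread then comes from the KO iPSC pair alone. Without WT iPSC replicate 1 the number of members that fell was 4 against the WT pluripotent arrays, Dnmt3a and Dnmt3b among them, where 2438 of 22180 genes were lower. It was 1 without WT iPSC replicate 2, or without either KO iPSC array, against the WT pluripotent arrays, and 1 against WT iPSC without KO iPSC replicate 1.

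**Figure D2:**
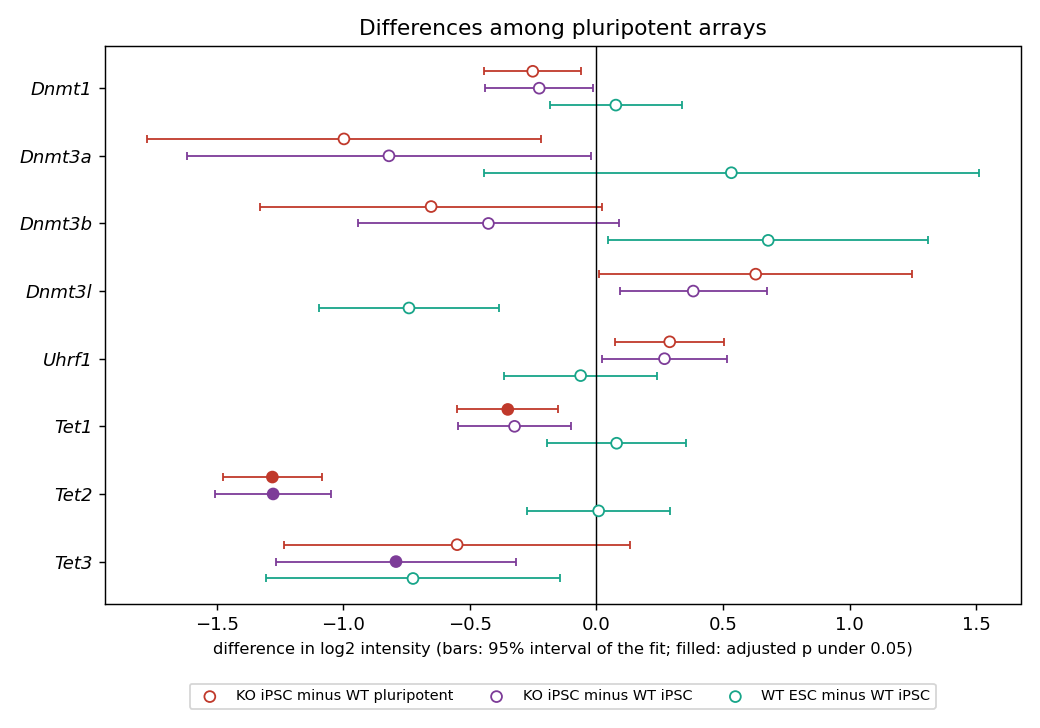
Differences in log2 intensity (horizontal axis) of the 8 genes for KO iPSC minus WT pluripotent arrays, KO iPSC minus WT iPSC and WT ESC minus WT iPSC; bars are 95% intervals of the fit and filled points passed an adjusted p of 0.05. Tet2 stands apart at -1.28 in both KO comparisons and at 0.01 in WT ESC minus WT iPSC, while Dnmt3a, Dnmt3b and Dnmt3l have wide intervals or differ between WT ESC and WT iPSC as well.

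The contrast of WT ESC with WT iPSC shows how far the enzymes varied within 1 genotype. None of the 8 genes passed in limma, where 0.0812% of all genes were higher in WT ESC and the same share lower, and 2704 genes had an unadjusted p under 0.05. The sizes were still uneven. Dnmt3b was 0.68 higher (SE 0.25), Dnmt3l 0.74 lower (SE 0.14) and Tet3 0.72 lower (SE 0.23) in WT ESC than in WT iPSC, with unadjusted limma p of 0.0397, 0.003 and 0.0239. Dnmt1 (0.08), Tet1 (0.08) and Tet2 (0.01) differed by no more than 0.08. The single WT ESC array is assumed in this fit to vary like the iPSC arrays. Without WT iPSC replicate 2, which leaves 1 array in each group, the differences were 1.01 for Dnmt3a, 0.97 for Dnmt3b and -0.84 for Dnmt3l. The spread in that fit comes from the KO iPSC pair alone, so it holds no spread between WT arrays.

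Most of the enzymes differed between iPSC and fibroblasts, with the same directions in both genotypes. Of the 8 genes 6 were higher and 1 lower in KO iPSC than in KO MEF, where 18.1% of all genes were higher and 17.9% lower. In WT iPSC against WT MEF it was again 6 higher and 1 lower, where the shares of all genes were 17.2% and 15.4%. The higher genes were Dnmt1, Dnmt3b, Dnmt3l, Uhrf1, Tet1 and Tet2, and the lower gene was Tet3. The median difference of the 8 genes was 2.14 in KO and 2.38 in WT cells, against 0.07 and -0.00026 over all genes. These calls held in all 12 alternative settings of each comparison. Among them, leaving out WT ESC or the MEF array of the other genotype repeats the reported fit. Each MEF group is 1 array and is assumed to vary like the iPSC arrays.

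Tet1 rose 17.01-fold in KO iPSC over KO MEF (11.68 and 11.58 against 7.54, log2 4.09, SE 0.11, limma adjusted p = 0.000137) and 29.4-fold in WT iPSC over WT MEF (11.95 and 11.95 against 7.08, log2 4.88, SE 0.11, limma adjusted p = 0.000104). Dnmt3l lay below background in both MEF arrays, at 5.93 in KO MEF and 6.12 in WT MEF, so its fold is a lower bound against the yardstick. It was at least 27.6-fold higher in KO iPSC than in KO MEF (limma adjusted p = 0.000143) and at least 19.7-fold higher in WT iPSC than in WT MEF (limma adjusted p = 0.000175). Tet1 was above background in both MEF arrays, and both genes were bright in every pluripotent array. Dnmt3b rose 8.23-fold in KO cells and 9.41-fold in WT cells, where KO MEF stood at 6.88 and WT MEF at 7.11.

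Dnmt1 and Uhrf1 were already well above background in MEF. Dnmt1 stood at 9.80 in KO MEF and 10.46 in WT MEF, and rose by 1.38 (SE 0.10) in KO iPSC and 0.95 (SE 0.10) in WT iPSC. Uhrf1 stood at 8.40 in KO MEF and 9.33 in WT MEF, and rose by 2.89 (SE 0.12) in KO iPSC and 1.70 (SE 0.12) in WT iPSC. Tet3 stood at 9.31 in KO MEF and 9.49 in WT MEF, and fell 3.24-fold in KO iPSC (log2 -1.69, SE 0.23, limma adjusted p = 0.00406) and 2.12-fold in WT iPSC (log2 -1.08, SE 0.23, limma adjusted p = 0.02). Tet3 is thus the Tet gene whose order between the cell types is opposite to that of Tet1 and Tet2. Dnmt3a did not pass in either genotype. Its difference was -0.09 (95% interval -1.07 to 0.88) in KO and 1.15 (95% interval 0.18 to 2.13) in WT cells, and the 2 WT iPSC arrays lay far apart. Without WT iPSC replicate 1 the WT difference was 1.63 and without replicate 2 it was 0.68, each from 1 array against 1.

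**Figure D3:**
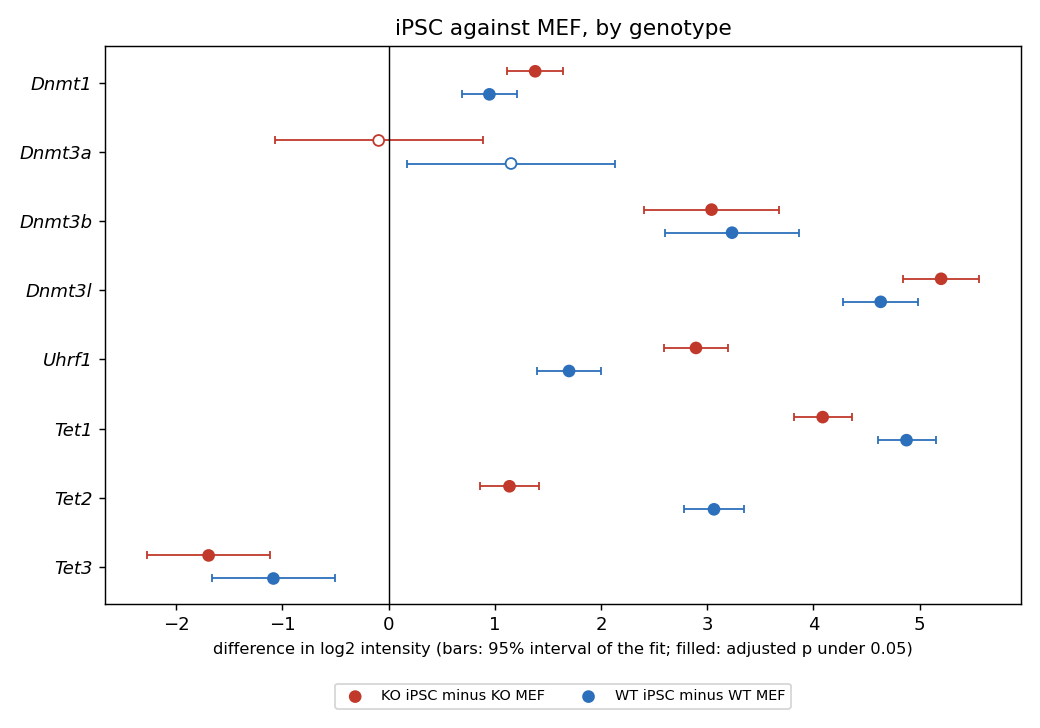
Differences in log2 intensity (horizontal axis) between iPSC and MEF for the 8 genes, in KO cells and in WT cells; bars are 95% intervals of the fit and filled points passed an adjusted p of 0.05. The Tet2 difference is 1.14 in KO and 3.06 in WT cells, with intervals that do not meet, and Tet3 is the one gene called lower in both.

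Tet2 rose far less between fibroblasts and iPSC in KO than in WT cells. It was 2.20-fold higher in KO iPSC than in KO MEF (log2 1.14, SE 0.11) and 8.37-fold higher in WT iPSC than in WT MEF (log2 3.06, SE 0.11). The difference between those 2 differences, which is the interaction of genotype and cell type, was -1.93 (SE 0.16, limma adjusted p = 0.0077). It holds a lower level in KO iPSC and a higher one in KO MEF, where Tet2 stood at 9.27 against 8.62 in WT MEF. The interaction also passed for Tet1 (-0.79, SE 0.15, limma adjusted p = 0.0427) and Uhrf1 (1.19, SE 0.17, limma adjusted p = 0.0215). Thus 2 of the 8 genes had a negative and 1 a positive interaction, where 5.48% and 3.07% of all genes did so and 5662 genes had an unadjusted p under 0.05. With either WT iPSC array left out, the interaction rests on 1 WT iPSC array and takes its spread from the KO iPSC pair alone. Leaving out either KO iPSC array ended all 3 calls, with adjusted p between 0.0525 and 0.21 and sizes of -1.98 to -1.87 for Tet2, and median centring ended that of Tet1 (adjusted p = 0.0603).

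Between the MEF arrays, 1 for each genotype and hence with no test, Uhrf1 and Dnmt1 differed downwards and Tet2 upwards. Uhrf1 was 1.90-fold lower and Dnmt1 1.58-fold lower in KO MEF than in WT MEF, while Tet2 was 1.57-fold higher. These are the genes past 1.5-fold, 2 of 8 lower and 1 of 8 higher, where 5.37% and 6.73% of all genes were past that fold. Tet1 (0.47) and Dnmt3a (0.43) were also higher and Dnmt3b (-0.23), Dnmt3l (-0.19) and Tet3 (-0.18) lower on the log2 scale. Genes of S phase, when maintenance methylation takes place, were lower in KO MEF: 22 of 22 measured genes lay below 0, 18 of them past 1.5-fold, with a median difference of -0.81. Their part in the lower Dnmt1 and Uhrf1 was not tested.

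In iPSC the S phase genes were also mostly lower in KO. The interaction passed for 6 of the 22 as higher and for 0 as lower, beside 3.07% and 5.48% of all genes. Over all genes 9.55% were lower and 6.93% higher in KO iPSC against WT iPSC. There 19 of 22 S phase genes lay below 0, with a median of -0.28, and 5 fell and 0 rose. They included the ribonucleotide reductase subunit Rrm2 (-1.06, SE 0.08), the cyclin Ccne1 (-0.81, SE 0.12), Gins1 (-0.56, SE 0.11) and Rpa2 (-0.51, SE 0.10). Dnmt1, at -0.23, lay near that median, while Uhrf1, at 0.27, lay on the other side of 0, and neither was called. The S phase genes Tyms (0.44), Chaf1a (0.12) and Pcna (0.07) also lay above 0.

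**Figure D4:**
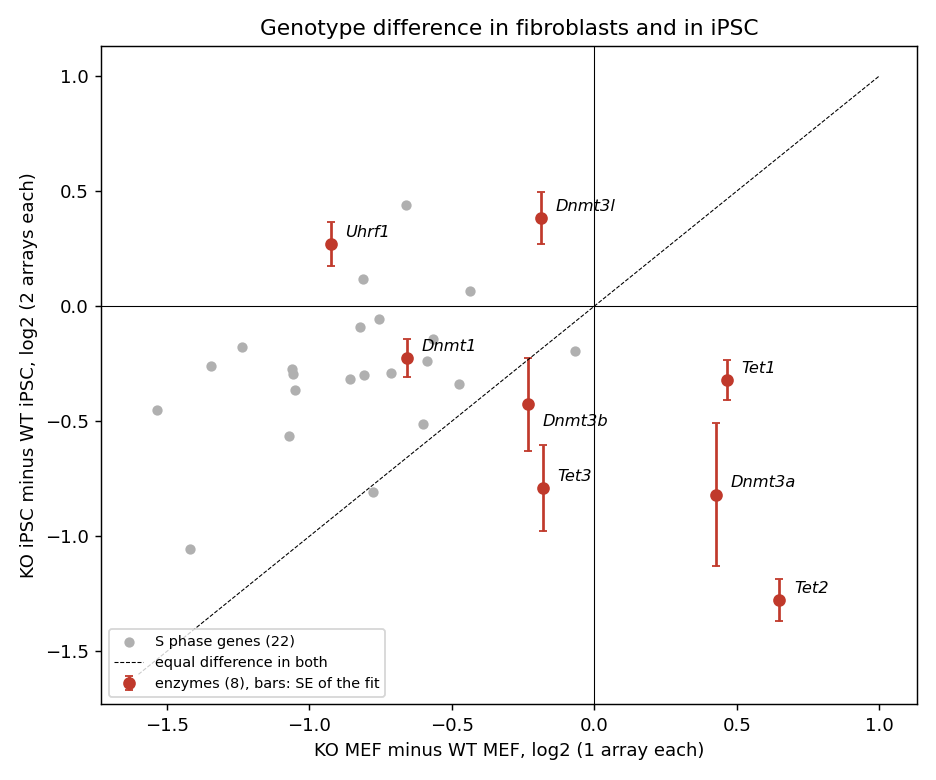
KO minus WT difference in log2 intensity in iPSC (vertical axis, 2 arrays each) against that in MEF (horizontal axis, 1 array each) for the 8 enzymes, with SE of the fit in iPSC, and for 22 S phase genes in grey; the dashed line marks equal differences. Tet2, Tet1 and Dnmt3a lie at lower right, higher in KO MEF and lower in KO iPSC, Uhrf1 lies at upper left at -0.93 in MEF and 0.27 in iPSC, and all S phase genes lie left of 0.

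Genes that work with the enzymes were followed in lists, beside the same comparison of KO iPSC with the 3 WT pluripotent arrays. Each count below is to be set beside the shares of all genes in that comparison, 8.81% lower and 6.89% higher. Of 16 partners of maintenance methylation 4 fell and 0 rose. Cdca7l (-1.97, SE 0.23) and Cdca7 (-1.04, SE 0.12), which encodes the activator of the remodeller Hells, led, followed by Hells itself (-0.46, SE 0.09), a helicase needed for methylation of repeats, and by the histone methyltransferase gene Ehmt2 (-0.39, SE 0.09). Trim28 (-0.18), Setdb1 (0.16) and Zfp57 (0.04), which guard imprinted methylation, were not called. Dppa3, whose protein protects methylation in the zygote, stood at 6.38 and 6.53 in KO iPSC, against 6.71 and 7.26 in WT iPSC and 8.20 in WT ESC, and was not called either.

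Of 9 methyl-CpG readers and their relatives 2 fell and 2 rose, beside 8.81% and 6.89% of all genes. The Uhrf1 paralog Uhrf2 (-0.83, SE 0.12) and the glycosylase Mbd4 (-0.77, SE 0.16) fell. Zbtb38 (0.995, SE 0.10) and Mbd6 (0.78, SE 0.12), a relative of the readers, rose. Uhrf2 thus moved opposite to the uncalled difference of Uhrf1, at 8.82 and 8.85 in KO iPSC, against 9.70 and 9.82 in WT iPSC and 9.48 in WT ESC. Of 15 genes listed with base excision repair, the pathway that finishes Tet-led demethylation, 5 fell and 0 rose. They were Gadd45g (-1.36, SE 0.18), Mbd4, Gadd45b (-0.68, SE 0.15), the ligase Lig3 (-0.58, SE 0.08) and the glycosylase Nthl1 (-0.39, SE 0.10). Gadd45g and Gadd45b do not encode repair enzymes. In KO iPSC Gadd45g lay near background, at 6.32 and 6.57 beside yardsticks of 6.50 and 6.44. The 10 genes not called included Parp1 (-0.28) and Xrcc1 (0.22). The list medians were -0.13 for maintenance partners, -0.06 for readers and relatives and -0.21 for base excision repair, against 0.03 over all genes.

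Among 17 partners and regulators of the Tet enzymes 2 fell and 1 rose, beside 8.81% and 6.89% of all genes. Prdm14, which represses Dnmt3b in mouse ESC, fell (-1.75, SE 0.27), as did the RNA-binding Lin28a (-1.85, SE 0.23). Idh1, the isocitrate dehydrogenase that makes the Tet cosubstrate 2-oxoglutarate, rose 1.60 (SE 0.16): it stood at 12.21 and 12.14 in KO iPSC, against 10.54 and 10.86 in WT iPSC and 10.32 in WT ESC. Among 11 genes of methyl donor supply the methionine synthase Mtr rose (0.88, SE 0.12), while Ahcy (-0.69, SE 0.15), the hydrolase that clears the methylation by-product, and its relative Ahcyl1 (-0.73, SE 0.09) fell. Of 13 regulators of de novo methylation 4 fell and 0 rose, namely Mycn (-2.19, SE 0.28), Prdm14, Kdm1b (-0.44, SE 0.08), a histone demethylase required for maternal imprints, and Ehmt2. Of 3 cytosine deaminases Apobec3 fell (-1.89, SE 0.10) and 0 rose.

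Germline genes whose promoters are known to be silenced by methylation were followed as a further list. Methylation was not measured, so their levels do not show the state of these promoters. They also varied within WT, with 2 called higher in WT ESC than in WT iPSC. In KO iPSC against the WT pluripotent arrays 8.81% of all genes were lower and 6.89% higher. Of 15 measured 4 fell and 0 rose, with a median of -0.45: the piRNA factor Mael (-2.40, SE 0.21), the meiotic Hormad1 (at least 1.35-fold lower, fitted log2 -1.95, SE 0.14), the RNA-binding Dazl (-1.62, SE 0.36) and Sycp1 (-0.78, SE 0.11). Sycp1 was above background on 1 of the 5 pluripotent arrays, WT iPSC replicate 1, so it rests on dim values. Mael stood at 7.18 and 7.14 in KO iPSC, against 9.57 and 9.93 in WT iPSC and 9.19 in WT ESC. No array of MEF had any of the 15 above background, KO iPSC had 2 and 3, WT iPSC 7 and 7 and WT ESC 8. Immediate early and feedback genes of ERK signalling, which the 2i inhibitors act on, moved beside these results, with 6 of 13 higher and 1 lower, among them Egr1 (3.04, SE 0.49), Egr2 (2.36, SE 0.35), Dusp5 (1.55, SE 0.12) and Etv5 (-0.40, SE 0.08). The summed intensity of the 13 genes was 24885 and 25383 in KO iPSC, 12099 and 13707 in WT iPSC and 14800 in WT ESC. Such a sum follows the brightest genes most, and 6 of the 13 were not called, Fos and Fosb among them. Fos varied widely within WT, at 8.91 and 6.95 in WT iPSC and 10.02 in WT ESC. The part of these 13 genes in the enzyme levels was not tested.

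**Figure D5:**
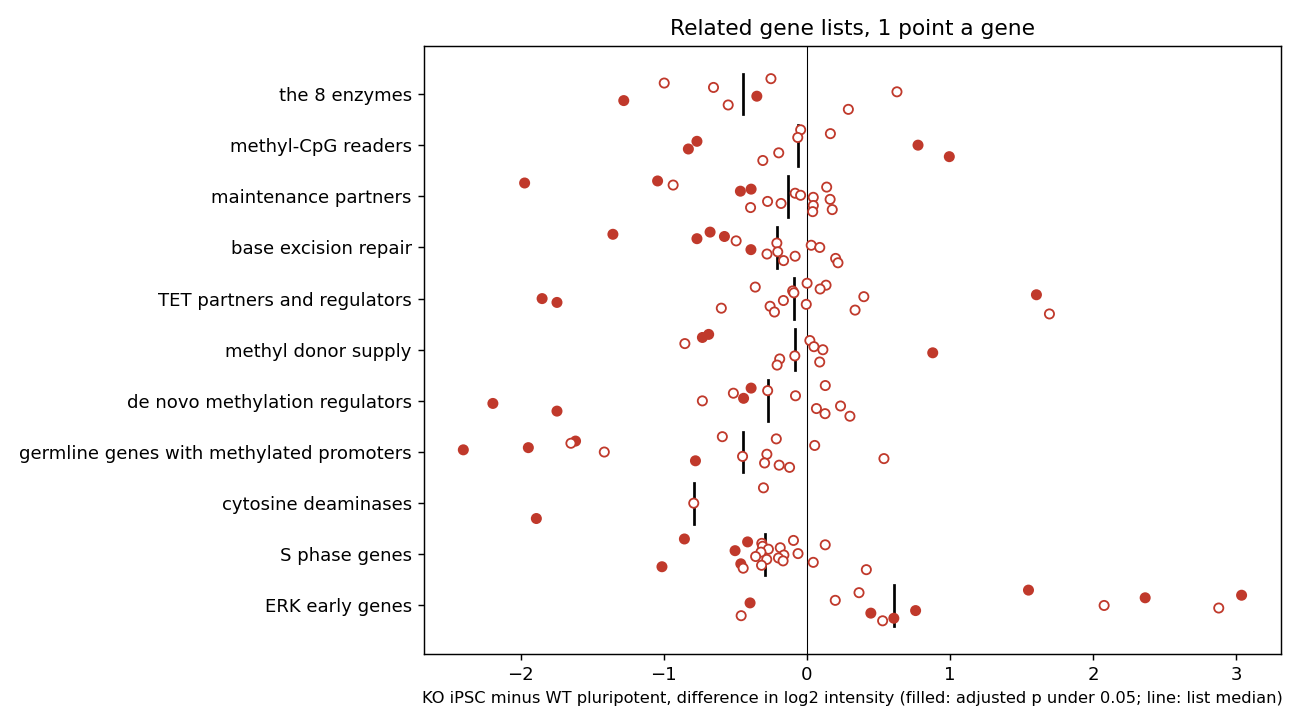
Difference in log2 intensity (horizontal axis) of KO iPSC minus the WT pluripotent arrays for the 8 enzymes and 10 related gene lists, 1 point a gene; filled points passed an adjusted p of 0.05 and the black line is the list median. The medians lie between -0.79 for cytosine deaminases and 0.61 for ERK early genes, and filled points at the left end include Mael (-2.40) and Mycn (-2.19).

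The genes with the most similar profile over the 7 arrays were found by the root mean square (RMS) difference of log2 values after each profile was centred on its own mean, among 15273 other genes above background on at least 1 array. Tet1 was closest to the adhesion gene Cdh1 (0.152), Hsd17b14 (0.20) and the pluripotency marker Zfp42 (0.229). Tet2 was closest to Fam122b (0.177), Map7d2 (0.182) and Spint2 (0.197), and Tet3 to Fam20c (0.159), Urgcp (0.182) and Tmbim1 (0.182). Dnmt1 had the nearest neighbours of all 8 genes, Mcph1 (0.0615), AU020206 (0.0663) and Gtpbp4 (0.0687). Uhrf1 was closest to L3mbtl2 (0.119), the telomere-binding Terf1 (0.137) and the cell cycle kinase Wee1 (0.145). Dnmt3a was closest to Sox12 (0.147), Tmem28 (0.177) and Itgb7 (0.183), Dnmt3b to Large2 (0.211), Hook1 (0.223) and Upp1 (0.259), and Dnmt3l to Gm14393 (0.213), Gm2381 (0.214) and Triml2 (0.275). These values describe likeness over few arrays and carry no test.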

How the data were processed

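RNA of the 7 samples was hybridised to 1 array each. The authors deposited intensity values in linear units. Per the submitters' processing notes, the software was Affymetrix Expression Console (version 1.3.0.187), with RMA named as the method. The plan allowed for log2 values, so log2 was taken here and nothing else was normalized. Precision is limited by how many arrays there are. Of 33649 probe sets, 23521 carried 1 gene symbol in the platform annotation. The probe set with the highest mean stood for a gene with several (1082 genes), which gave 22180 genes. Chromosomes and start regions are RefSeq's (GRCm38.p6), and 9 of 9 members matched.

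Differences were tested with limma 3.58.1 in R 4.3.3 (lmFit, eBayes, two-sided, Benjamini-Hochberg over all 22180 genes, threshold 0.05). KO iPSC against WT pluripotent arrays used those 5 arrays (3 residual degrees of freedom), and the other tests a fit of all 7 arrays in which each group had its own mean (2 residual degrees of freedom). The fitting was tested on simulated data. SE is limma's moderated standard error. The members and lists (184 further symbols, 169 measured, 15 not analysed here) were chosen with earlier results of these data known. Named in the text are all members, the nearest 3 genes of each, and up to 4 genes per list and direction with the largest difference among those called; 1 further called gene of base excision repair (Nthl1) and uncalled list genes were chosen after their values were seen. Alternatives were median centring, quantile normalization, leaving out the dimmest genes (a share of 0.333), averaging probe sets, adding 16 before the log, trend and robust fitting, a replicate block, leaving out each array and, chosen after seeing the data, averaging the KO iPSC arrays. They are not independent of each other. Leaving out a MEF array repeats both KO comparisons. The replicate block and leaving out WT ESC turn the comparison with WT pluripotent arrays into 1 with WT iPSC alone.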

Additional observations from a re-analysis of the deposited data

Results flagged for a closer look

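The KO minus WT difference in iPSC differed from that in MEF by the interaction test for Tet2 (-1.93), Uhrf1 (1.19) and Tet1 (-0.79). Tet2 and Tet1 were lower in KO iPSC and higher in KO MEF than in their WT counterparts, and Uhrf1 was higher in KO iPSC and lower in KO MEF. The MEF side rests on 1 array for each genotype.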

How the results depend on the processing

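Tet2 kept its direction and passed in all alternatives of both KO comparisons. The count of 2 members lower in KO iPSC against WT pluripotent arrays was 1 with median centring and with the KO arrays averaged, 3 with trend and robust fitting, and 1 to 4 with an array left out; the count of 0 higher was 1 with quantile normalization and with trend and robust fitting. Against WT iPSC the 2 lower became 1 with median centring, with quantile normalization and with the KO arrays averaged, 3 with trend and robust fitting, and 1 to 4 with an array left out, and the 0 higher 0 to 1. For WT ESC against WT iPSC the counts with an array left out were 0 to 2 higher and 0 to 1 lower. For the interaction they were 0 to 2 higher and 0 to 3 lower, and median centring left 1 lower. Signs turned only near 0: Tet2 in WT ESC minus WT iPSC (-0.0022) and Dnmt3a in KO iPSC minus KO MEF (0.019) with quantile normalization, Uhrf1 in WT ESC minus WT iPSC (-0.14 to 0.017) and Dnmt3b in the interaction (-0.48 to 0.10) with an array left out. The cause of these changes was not tested. Leaving out an array can leave fewer degrees of freedom, but the counts did not only fall. Without WT iPSC replicate 1 the members lower against the WT pluripotent arrays rose from 2 to 4. In the fit with a mean for each group, leaving out a WT iPSC array leaves the spread to the KO iPSC pair alone. That pair differed less (SD over genes 0.154) than the WT iPSC pair (SD 0.323).

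The replicate numbers shared by KO and WT iPSC did not pair the arrays by the labels, and the correlation of replicate 1 minus replicate 2 between the genotypes was 0.0166 over 22180 genes. With a replicate block on the iPSC arrays 2 members fell and 0 rose; Tet2 was at -1.28 and Tet3 at -0.79, both past the threshold, and Tet1 at -0.32 was not (adjusted p = 0.113). The block gave 1331 higher and 1948 lower genes, against 1538 and 2118 without it. Counts over all genes rested on the replicates. KO iPSC against WT pluripotent arrays gave 157 higher and 184 lower genes without KO iPSC replicate 1, 173 and 230 without replicate 2, 159 and 206 with both averaged, and 947 and 1283 without WT iPSC replicate 2. Against WT iPSC the counts were 212 and 307, 219 and 349, and 200 and 306 for the same KO settings, and 2504 and 3475 without WT iPSC replicate 1. WT ESC against WT iPSC gave 1095 and 1194 without WT iPSC replicate 2, 488 and 407 without replicate 1, 37 and 58 with trend and robust fitting, 9 and 13 with dim genes left out, and 0 and 1 without either KO array. KO iPSC against KO MEF gave 2231 and 2546 without KO iPSC replicate 1 and 2199 and 2680 without replicate 2. The interaction gave 19 and 70 and 40 and 118 without KO iPSC replicates 1 and 2, and 2084 and 2932 and 2036 and 2801 without WT iPSC replicates 1 and 2. In the MEF pair no scaling moved a member past or back over 1.5-fold. With 1 or 2 arrays a group, small differences such as those of Dnmt1 and Uhrf1 lie at the limit of what these tests can call.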
